A study of Mus musculus with 9 samples.

Results

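The miR-106b-25 cluster is a group of 3 microRNA (miRNA) hairpins, Mir106b, Mir93 and Mir25, that lie close together in an intron of Mcm7. Its members were taken by name: every deposited miRNA that is an arm of miR-106b, miR-93 or miR-25. This gave 6 mature miRNAs of the 860 measured, the 5p and 3p arm of each hairpin. They were measured by small RNA sequencing of subcutaneous adipose tissue, which is the fat layer beneath the skin, from 9 mice.

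The mice were sampled at 24 weeks of age, after 16 weeks on a diet rich in fat and sucrose that began at 8 weeks of age. There were 3 genotypes with 3 mice each: wild-type littermates (WT), and carriers of the endothelial knockout of AGO1 labelled Hete KO and Homo KO. Argonaute 1, the protein made from Ago1, holds mature miRNAs and takes them to their target mRNAs. The labels name neither the promoter or Cre line that restricts the deletion to endothelial cells nor the strain, and Ago1 mRNA itself is not among the mature miRNAs, so the deletion was not checked here. The tissue was whole fat, in which endothelial cells are mixed with adipocytes, stromal cells and leukocytes, and fewer cells of a type cannot be told apart from less of a miRNA per cell.

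As background, Mcm7 encodes a subunit of the helicase that opens DNA at replication origins. The gene and the miRNAs in its intron are induced by E2F transcription factors when cells enter the cell cycle. A miRNA recognises target mRNAs mainly through its seed, the bases near its 5′ end, so miRNAs with a shared seed share many predicted targets. miR-106b-5p and miR-93-5p carry the seed of the miR-17 family, whose known targets include the cell cycle inhibitor Cdkn1a. miR-25-3p carries the seed of the miR-25/92 family, whose known targets include the proapoptotic gene Bcl2l11. The miR-17-92 cluster and the miR-106a-363 cluster are paralogues that carry arms with the same seeds. In fat, miR-106b and miR-93 have been described as inhibitors of brown adipocyte formation.

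The mature sequences show which members can act on the same sites. All 6 members had a sequence in RefSeq (build GRCm38.p6), and they were 21 to 23 bases long. Here the seed, bases 2 to 8 from the 5′ end, is in capitals and the rest in lower case.
miR-106b-5p: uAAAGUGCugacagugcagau
miR-93-5p: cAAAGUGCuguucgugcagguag
miR-25-3p: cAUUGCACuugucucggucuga
miR-106b-3p: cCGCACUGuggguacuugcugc
miR-93-3p: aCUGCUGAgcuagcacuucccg
miR-25-5p: aGGCGGAGacuugggcaauugc

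The seed AAAGUGC of miR-106b-5p and miR-93-5p was carried by 6 measured miRNAs, the other 4 being miR-17-5p, miR-20a-5p, miR-20b-5p and miR-106a-5p. The seed AUUGCAC of miR-25-3p was carried by 5 measured miRNAs, the other 4 being miR-92a-3p, miR-92b-3p, miR-32-5p and miR-363-3p. The seeds of miR-106b-3p, miR-93-3p and miR-25-5p were each shared with 0 other measured miRNAs. Seeds were compared, here and below, only among the 698 of 860 measured miRNAs with a sequence in RefSeq. The main relatives from the miR-17-92 cluster are shown to let their bases be compared with those of the members.
miR-17-5p: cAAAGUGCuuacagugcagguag
miR-20a-5p: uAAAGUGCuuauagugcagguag
miR-92a-3p: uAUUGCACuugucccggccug

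Counted from 1 at the 5′ end, with the member's base first, miR-106b-5p differed from miR-17-5p at 3 of 21 positions (U1C, G10U and A20G). It differed from miR-20a-5p at 3 of 21 positions as well (G10U, C12U and A20G). miR-93-5p differed from miR-17-5p at 4 of 23 positions (G10U, U11A, U12C and C13A). The members miR-106b-5p and miR-93-5p differed from each other at 5 of 21 positions. miR-25-3p differed from miR-92a-3p at 3 of 21 positions (C1U, U14C and U18C). How reads that fit several of these near-identical miRNAs were assigned is not given in the sources used here, so that the levels within a seed family are uncertain to that extent.

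The hairpins are shown because their arms are the members. In the GRCm38.p6 annotation all 3 lie on chromosome 5, on the minus strand, at chr5:138165737-138165818 (Mir106b), chr5:138165523-138165610 (Mir93) and chr5:138165321-138165404 (Mir25). Capitals mark the 5p arm and then the 3p arm.
Mir106b: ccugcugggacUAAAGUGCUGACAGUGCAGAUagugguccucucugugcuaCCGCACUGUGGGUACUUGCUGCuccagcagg
Mir93: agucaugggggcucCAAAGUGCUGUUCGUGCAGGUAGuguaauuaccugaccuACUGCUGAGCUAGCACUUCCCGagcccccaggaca
Mir25: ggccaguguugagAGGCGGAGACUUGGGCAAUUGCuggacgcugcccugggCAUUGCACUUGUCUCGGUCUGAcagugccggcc

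The hairpins were 82, 88 and 84 bases long, in the order of transcription, and together spanned 498 bases, with 126 bases between Mir106b and Mir93 and 118 between Mir93 and Mir25. All 3 lay in the intron after exon 13 of the Mcm7 transcript with 15 exons, an intron of 748 bases. They began 6604, 6812 and 7018 bases from the start of Mcm7. Mir93 and Mir25 also lay inside an exon of another annotated transcript of the gene, which retains introns, and Mir106b lay in no annotated exon of Mcm7. Exons of other genes were not examined. Mcm7 mRNA was not analysed here.

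**Figure D1:**
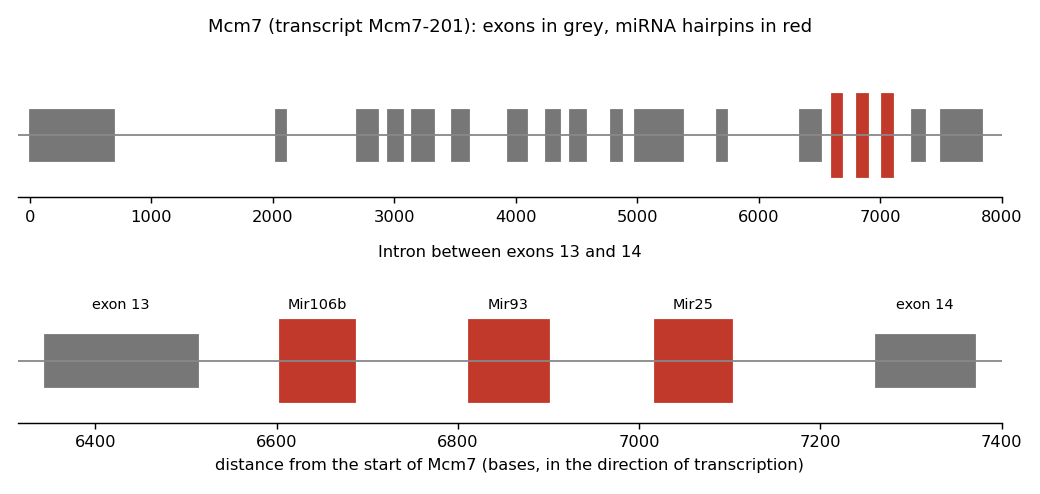
Map of Mcm7 drawn to scale, with the distance from the gene's start in bases on the x axis, exons in grey and the 3 hairpins in red; the lower panel enlarges the intron after exon 13. The 3 hairpins sit within 498 bases of an intron of 748 bases.

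Values are the deposited log2 values of each library. All 9 libraries had nearly the same distribution, and the values were treated as quantile-normalized log2(x + 1), a scale inferred from the values and on which the back-transformed shares given here rest. The number of reads is unknown. A library's count of miRNAs at its lowest value, a trace of depth, was 79 ± 21.9 in WT, 119 ± 28.4 in Hete KO and 120 ± 19.8 in Homo KO (SD, n = 3 mice each). For either knockout against WT the counts overlapped, with p = 0.2 in a two-sided exact permutation test. No 2 libraries were identical. Listed adipocyte and stromal miRNAs (5 of 5 measured) had mean log2 values of 16.3 to 16.6, and endothelial miR-126a arms (2 of 2) had 15.7 to 16.7. Muscle miRNAs, of a tissue that lies under this fat, differed far more, with means of 4 miRNAs from 6.17 to 14.3; they were highest in Hete KO 2, WT 2 and WT 1. Hete KO 1 stood apart with an epithelial mean of 8.40, where the other 8 libraries had 4.59 to 5.76, and with the lowest erythroid mean, 9.15 against 10.06 to 11.05. The liver miRNA mean (2 miRNAs) was 5.18 in WT 1 and 8.79 to 12.1 in the other libraries.

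The cluster's main products were among the more abundant miRNAs of this fat. miR-93-5p ranked 61 of 860 by its mean over the libraries, miR-25-3p ranked 65 and miR-106b-5p ranked 92. Of the other arms, miR-106b-3p ranked 178, miR-93-3p ranked 364 and miR-25-5p ranked 515. The members' mean log2 values ran from 3.10 to 12.9, and as all had nearly the same length, levels can be set side by side on this scale, apart from differences in how well each sequence is captured in a library. Back-transformed and summed, the 6 arms made up between 0.228% and 0.280% of the total in a library, with a median of 0.252%.

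miR-106b-5p, from the hairpin nearest the start of Mcm7, had log2 values of 11.29, 11.34 and 11.19 in WT mice 1 to 3. Its values were 11.24, 11.37 and 11.51 in Hete KO and 11.37, 11.66 and 11.55 in Homo KO. Every Homo KO library lay above every WT library, while the Hete KO values overlapped both groups.

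miR-93-5p, which shares that seed, had log2 values of 12.92, 12.66 and 13.01 in WT. Its values were 12.66, 12.80 and 12.96 in Hete KO and 12.77, 13.06 and 13.06 in Homo KO. The 3 groups overlapped, and the highest WT value lay just under the 2 highest values of Homo KO.

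miR-25-3p, the member of the miR-25/92 family, had log2 values of 12.58, 12.48 and 12.66 in WT. Its values were 12.69, 12.53 and 12.63 in Hete KO and 12.53, 12.66 and 12.69 in Homo KO. All 9 values lay within 0.21 of each other, and the groups overlapped.

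miR-106b-3p, the second arm of Mir106b, had log2 values of 8.69, 8.71 and 8.51 in WT. Its values were 8.76, 8.55 and 8.71 in Hete KO and 8.78, 8.71 and 8.82 in Homo KO. The groups touched or overlapped, and WT 3 was the lowest of the 9.

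miR-93-3p, the rare arm of Mir93, had log2 values of 5.61, 5.46 and 5.79 in WT. Its values were 4.74, 5.78 and 5.58 in Hete KO and 5.23, 5.06 and 5.34 in Homo KO. Every Homo KO library lay below every WT library, and the lowest value of all came from Hete KO 1, the library with the high epithelial mean.

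miR-25-5p, the rare arm of Mir25, had log2 values of 3.66, 2.88 and 3.38 in WT. Its values were 3.42, 3.12 and 2.98 in Hete KO and 3.40, 2.47 and 2.63 in Homo KO. The groups overlapped. Its mean of 3.10 was under the minimum of 3.46 set for testing, so that 5 of the 6 members were tested among 489 miRNAs.

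**Figure D2:**
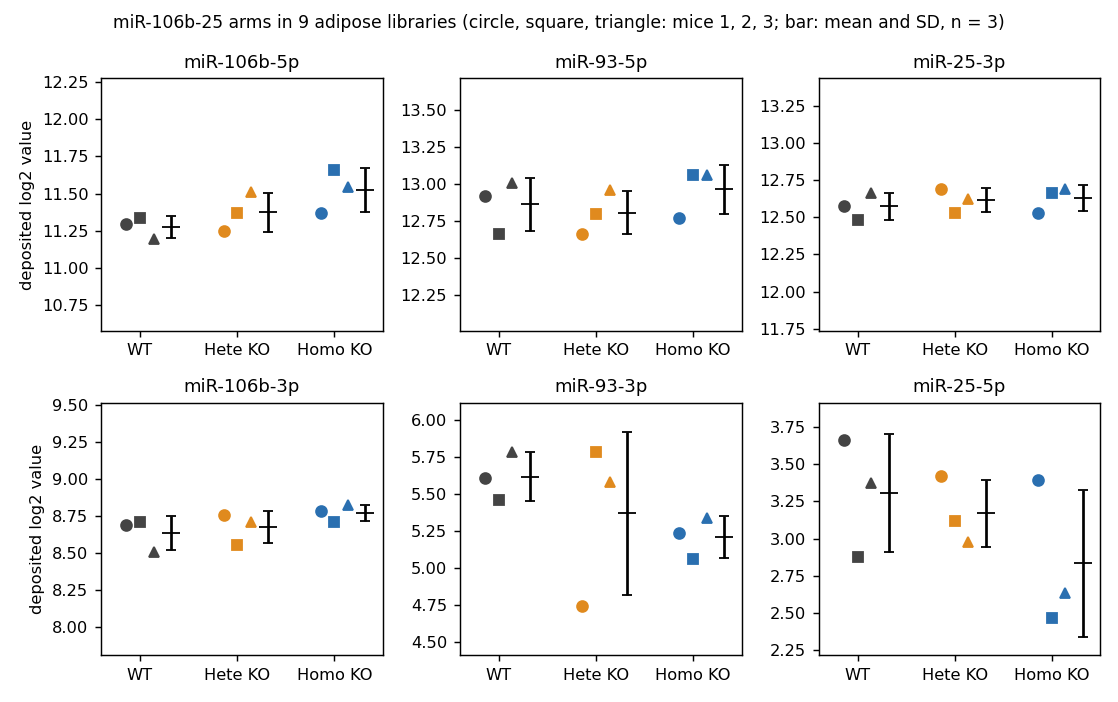
Deposited log2 value (y axis of equal span in each panel, not starting at 0) of each member in each mouse of the 3 genotypes; bars give the mean and SD of 3 mice. Homo KO lies wholly above WT for miR-106b-5p and wholly below it for miR-93-3p, and the other panels overlap.

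The order of the 6 levels was the same in 8 of 9 libraries: miR-93-5p, miR-25-3p, miR-106b-5p, miR-106b-3p, miR-93-3p and miR-25-5p, from high to low. In Hete KO 1, miR-25-3p stood 0.029 above miR-93-5p. The first neighbours in that order were close, miR-93-5p minus miR-25-3p having a median of 0.33 on the log2 scale and a range from -0.029 to 0.39, which is about the range of miR-93-5p itself (0.39). The others were farther apart than their spread: miR-25-3p exceeded miR-106b-5p by a median of 1.16 and by at most 1.47, and did so in all 9 libraries.

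The abundant members varied little between mice of a genotype. The SD within genotypes, pooled over the 3 groups, was 0.087 for miR-25-3p, and 97.8% of the 489 tested miRNAs had a larger one. It was 0.096 for miR-106b-3p, with 96.9% of tested miRNAs larger, and 0.12 for miR-106b-5p, with 94.5% larger. For miR-93-5p it was 0.16, with 85.1% larger, and the rare arm miR-93-3p had 0.34, with 38.4% larger. The median over tested miRNAs was 0.30. Against miRNAs of like abundance the contrast was smaller for miR-106b-5p than for miR-25-3p. Among the 38 tested miRNAs whose mean lay within 1 log2 unit of that of miR-25-3p, 1 had a smaller SD, the median being 0.23. Among the 49 within that distance of miR-106b-5p, 9 had a smaller SD. The count was 9 of 38 for miR-93-5p, 3 of 76 for miR-106b-3p and 82 of 156 for miR-93-3p. On this scale abundant miRNAs move in steps between shared rank levels: miR-25-3p took 6 distinct values in 9 libraries and miR-93-5p took 7.

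Homo KO against WT asks whether the full endothelial knockout goes with another level of these miRNAs in whole fat. Of the 5 tested members, 0 passed an adjusted p of 0.05 in limma (Benjamini-Hochberg over 489 miRNAs), where 3.27% of all tested miRNAs did, and 0 had an unadjusted p under 0.05, where 23.9% did. The groups did not overlap for 2 of the 5, where 32.7% of all tested miRNAs did not overlap; 1 of the 2 was higher, as were 18.4% of all, and 1 was lower, as were 14.3% of all. miR-106b-5p was 11.52 ± 0.15 in Homo KO and 11.27 ± 0.07 in WT (SD, n = 3 mice each), a log2 difference of 0.25 with a 95% interval from -0.04 to 0.54, or 1.19-fold (adjusted p = 0.287). miR-93-3p was 5.21 ± 0.14 and 5.62 ± 0.16, a difference of -0.41 with an interval from -1.03 to 0.22 (adjusted p = 0.411). With 5 members, the count of calls is no higher, and the count without overlap about as high, as over all miRNAs.

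The intervals of the other members also included 0. miR-25-3p differed by 0.05 in log2, with an interval from -0.20 to 0.31, whose upper end is a 1.24-fold rise. miR-93-5p differed by 0.10, with an interval from -0.22 to 0.43, and miR-106b-3p by 0.14, with an interval from -0.15 to 0.42 (adjusted p in limma 0.777, 0.674 and 0.529). The median difference over the 5 members was 0.10, beside 0.07 over all 489 tested miRNAs. For miR-25-5p a fit without the filter on low values gave -0.47, with an interval from -1.37 to 0.43 (limma, adjusted p = 0.604 over 860 miRNAs).

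In the same comparison the mean of 5 leukocyte miRNAs was 11.95 ± 0.11 in Homo KO and 11.48 ± 0.12 in WT, without overlap, and the mean of the 2 endothelial miR-126a arms was 16.09 ± 0.09 and 16.45 ± 0.19, also without overlap. For each of these an exact permutation test gave p = 0.1, the smallest that 3 mice against 3 allow. The leukocyte miRNAs did not differ alike: 4 of 5 were higher in Homo KO, with log2 differences from -0.07 to 1.26 and a median of 0.23. Of the endothelial arms only miR-126a-5p was without overlap, with 14.48 to 14.80 in Homo KO and 14.95 to 15.34 in WT. The more abundant miR-126a-3p had the same value, 17.58, in WT 1, Homo KO 1 and Homo KO 2. The part of the leukocyte or the endothelial mean in the values of miR-106b-5p and miR-93-3p was not tested. The muscle mean was 8.42 ± 2.89 in Homo KO and 11.56 ± 3.47 in WT; with it as a covariate, the differences of miR-93-5p and miR-25-3p turned to -0.012 and -0.022.

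Hete KO against WT asks the same of the other knockout genotype, with the same WT libraries. In limma 0 of the 5 members passed, as did 0.409% of all tested miRNAs, and 0 had an unadjusted p under 0.05 (15.7% of all). The groups overlapped for all 5 members, and did not for 17.2% of all tested miRNAs. The log2 differences were 0.10 for miR-106b-5p (interval -0.19 to 0.39), 0.04 for miR-106b-3p (-0.25 to 0.33), -0.06 for miR-93-5p (-0.38 to 0.27) and 0.04 for miR-25-3p (-0.21 to 0.30). For miR-93-3p the difference was -0.25 (-0.87 to 0.38), and it was 0.064 without Hete KO 1. Adjusted p-values ran from 0.724 to 0.907, and the median over members was 0.04, beside -0.02 over all tested. In this comparison the endothelial mean was 15.93 ± 0.21 in Hete KO and 16.45 ± 0.19 in WT, and the adipocyte and stromal mean was 16.51 ± 0.05 and 16.40 ± 0.07, both without overlap (exact permutation p = 0.1 each). Of the endothelial arms only miR-126a-5p was without overlap here too, as miR-126a-3p was 17.58 in both WT 1 and Hete KO 1. The 5 adipocyte and stromal miRNAs differed by 0 to 0.24, with a median of 0.07. The part of these 2 means in the members' values was not tested.

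Between Homo KO and Hete KO, 0 of the 5 members passed in limma, as did 0% of all tested miRNAs. An unadjusted p under 0.05 was reached by 0 members and by 8.38% of all. The members' groups overlapped in all 5 cases, while 12.3% of all tested miRNAs did not overlap. The largest difference in size was that of miR-93-3p, -0.16 (interval -0.78 to 0.47), and miR-93-5p was next with 0.16 (-0.17 to 0.48). In this comparison the leukocyte mean was 11.95 ± 0.11 in Homo KO and 11.49 ± 0.30 in Hete KO, without overlap (exact permutation p = 0.1). Of the 5 leukocyte miRNAs 4 were higher in Homo KO, with differences from -0.02 to 0.80 and a median of 0.62. The part of this mean in the members' values was not tested. A moderated F-test over the 3 genotypes gave adjusted p-values from 0.481 to 0.936 for the members, and 1.23% of all tested miRNAs passed it.

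**Figure D3:**
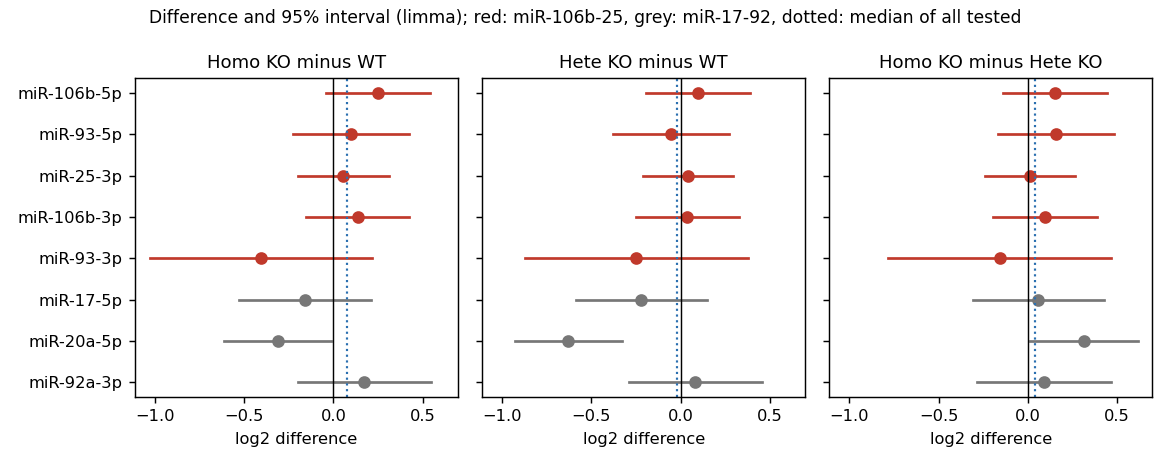
Log2 difference between genotypes (x axis) with its 95% interval from limma for the 5 tested members (red) and 3 relatives from the miR-17-92 cluster (grey); the dotted line is the median of all 489 tested miRNAs. Every member's interval includes 0 in all 3 comparisons, while that of miR-20a-5p does not. The latter runs from -0.62 to -0.01 in Homo KO minus WT and from -0.93 to -0.33 in Hete KO minus WT. In Homo KO minus Hete KO it runs from 0.01 to 0.62. The intervals are not adjusted, and miR-20a-5p did not pass in any of these comparisons (adjusted p in limma 0.195, 0.0605 and 0.593). An unadjusted p under 0.05 was reached by 23.9%, 15.7% and 8.38% of all tested miRNAs, in the same order.

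The paralogous clusters serve as the comparison for the members. Of the 12 listed arms of the miR-17-92 cluster, an oncogenic cluster with the same 2 seeds and the additional families of miR-18 and miR-19, 11 were measured and 9 tested. Against WT, 8 of the 9 had lower means in Homo KO and 8 of the 9 in Hete KO, with medians of -0.41 and -0.56. Over all 489 tested miRNAs, 220 had lower means in Homo KO and 257 in Hete KO, with medians of 0.07 and -0.02. Both comparisons use the same WT libraries. Those that passed in limma were 1 of 9 in Homo KO, where 3.27% of all tested miRNAs passed, and 0 of 9 in Hete KO, where 0.409% did. The one that passed was miR-18a-5p, with values of 7.77, 7.72 and 7.50 in WT, 6.88, 6.87 and 6.95 in Hete KO and 6.91, 7.07 and 6.87 in Homo KO. All 6 knockout libraries lay below all 3 WT libraries. Of all tested miRNAs, 14.3% lay wholly below WT in Homo KO, and 17.2% did not overlap WT, in either direction, in Hete KO. How many did so with both knockouts was not counted. Its difference in Homo KO was -0.71 (adjusted p = 0.0314), and the call ended when any of 6 single libraries was left out, with adjusted p up to 0.133 (WT 1, WT 2, Hete KO 3 and each Homo KO library). The difference itself stayed between -0.79 and -0.66 when any library was left out. The call also ended without a filter on low values (-0.71, adjusted p = 0.0680), without the 3 libraries highest in muscle miRNAs (-0.55, adjusted p = 0.251), with the muscle mean as a covariate (-0.69, adjusted p = 0.106) and with a covariate for depth, the count of lowest values (-0.78, adjusted p = 0.194). In Hete KO its difference was -0.76 (adjusted p = 0.0548). There it passed with the stricter filter (adjusted p = 0.0328), with sample weights (0.0168), with the replicate block (0.0417), without WT 3 (0.0328) and without Hete KO 1 (0.0437). It did not pass in the other alternatives, among them without WT 1 (adjusted p = 0.307), with only the compared groups (0.194) and with the depth covariate (0.245). miR-20a-5p in Hete KO had a difference of -0.63 (adjusted p = 0.0605). It passed with the stricter filter (adjusted p = 0.0369), with sample weights (0.0170), without WT 3 (0.0434) and without Hete KO 1 (0.0497). In the other alternatives miR-20a-5p did not pass, among them without WT 1 (adjusted p = 0.310), with only the compared groups (0.207) and with the depth covariate (0.347). Of the 10 listed arms of the miR-106a-363 cluster, which lies on the X chromosome, 6 were measured, 3 were tested and 0 passed in any comparison. Not all same-seed relatives were lower. In Homo KO, 1 of the 4 miR-17 seed relatives was above WT, miR-20b-5p, by 0.60 (limma interval 0.02 to 1.18, adjusted p = 0.195). All 4 tested miR-25 seed relatives were above WT (median 0.55), miR-32-5p by 0.63 (0.05 to 1.21, adjusted p = 0.191). Over all 489 tested miRNAs 269 were higher. In Hete KO miR-20b-5p and miR-32-5p each differed by 0.28, with intervals that included 0.

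Set against its relatives, the miR-106b-25 cluster held most of the miR-17 seed family in this fat. On the back-transformed scale, miR-106b-5p and miR-93-5p together made up 78.4%, 80.1% and 82.6% of the summed value of the 6 miRNAs with that seed in WT 1, 2 and 3. The share was 83.6%, 83.9% and 84.3% in Hete KO and 82.9%, 83.8% and 85.1% in Homo KO. All knockout libraries lay above all WT libraries, the gap between WT 3 and Homo KO 1 being small beside the WT range. How often the shares of other families separate in this way was not counted. A share can rise with higher members or with lower relatives, and the part of each was not tested. In Hete KO against WT the log2 differences were 0.10 (miR-106b-5p) and -0.06 (miR-93-5p). Those of the relatives were -0.22 (miR-17-5p), -0.63 (miR-20a-5p), -0.20 (miR-106a-5p) and 0.28 (miR-20b-5p). In Homo KO against WT they were 0.25 (miR-106b-5p) and 0.10 (miR-93-5p) for the members. The relatives there had -0.16 (miR-17-5p), -0.31 (miR-20a-5p), -0.19 (miR-106a-5p) and 0.60 (miR-20b-5p). The summed level of the family overlapped between genotypes, with log2 sums of 13.47 to 13.67 in WT, 13.38 to 13.65 in Hete KO and 13.51 to 13.78 in Homo KO. In the other family miR-25-3p made up 49.9% to 56.0% of the summed value of 5 miRNAs in WT, 50.4% to 56.2% in Hete KO and 49.8% to 51.8% in Homo KO, so that the groups overlapped. miR-92a-3p, which comes from a hairpin of each paralogous cluster, made up most of the rest.

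**Figure D4:**
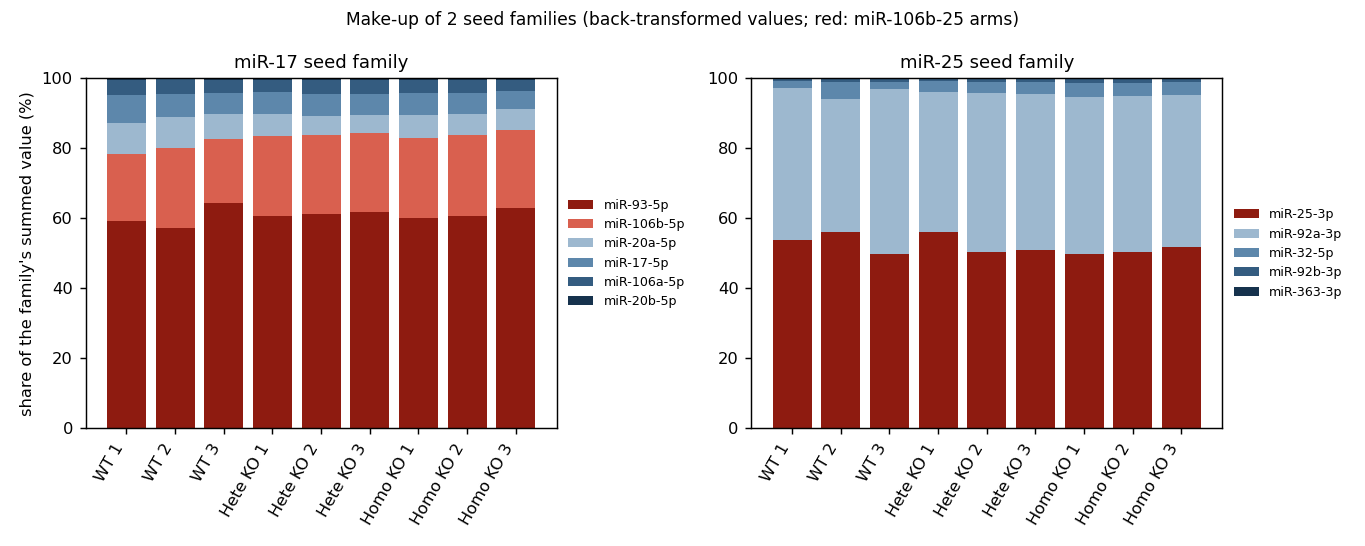
Share (y axis, %) of each miRNA in the summed back-transformed value of its seed family, for each library; red shades are arms of the miR-106b-25 cluster and blue shades their relatives. The red part of the miR-17 family runs from 78.4% to 85.1%, and miR-25-3p holds 49.8% to 56.2% of its family.

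The difference between a member and its same-seed relative was also taken within each library, which removes what scales both alike. miR-106b-5p minus miR-17-5p was 1.28, 1.77 and 1.57 in WT, 1.87, 1.80 and 1.91 in Hete KO and 1.86, 1.89 and 2.11 in Homo KO. All 6 knockout libraries lay above all 3 WT libraries, by a mean of 0.41 in Homo KO and 0.32 in Hete KO. miR-106b-5p minus miR-20a-5p was 1.10, 1.36 and 1.37 in WT, 1.85, 2.10 and 2.07 in Hete KO and 1.74, 1.94 and 1.83 in Homo KO. Here again all 6 knockout libraries lay above the WT libraries, by a mean of 0.56 in Homo KO and 0.73 in Hete KO. Exact permutation tests gave p = 0.1 for each of these 4 differences, the smallest possible, and adjusted p = 0.3 over the 12 tests of this kind. Of all 162 pairs of tested miRNAs that share a seed, 29.6% did not overlap between Homo KO and WT, 27.2% between Hete KO and WT, and 19.1% had all 6 knockout libraries on the same side of WT. The pairs were chosen with the low values of miR-20a-5p in the knockouts already known, so these tests are not independent evidence, and both genotypes were set against the same WT libraries. No member was set in this way against miR-20b-5p, whose mean was above that of WT in both knockouts. The endothelial mean was also lower in all 6 knockout libraries (15.7 to 16.2) than in WT (16.3 to 16.7), and its part in these differences was not tested. Of its arms this held for miR-126a-5p only, as miR-126a-3p was 17.58 in WT 1, Hete KO 1, Homo KO 1 and Homo KO 2.

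The other pairs overlapped. miR-93-5p minus miR-17-5p was 2.91, 3.10 and 3.39 in WT, 3.29, 3.24 and 3.36 in Hete KO and 3.27, 3.29 and 3.62 in Homo KO, and 1 of the 6 knockout libraries lay above all of WT. miR-25-3p minus miR-92a-3p was 0.31, 0.56 and 0.09 in WT, 0.49, 0.15 and 0.19 in Hete KO and 0.15, 0.18 and 0.26 in Homo KO, so that no knockout library left the range of WT. Exact permutation tests against WT gave p from 0.3 to 0.8 for these pairs, and adjusted p from 0.6 to 0.8.

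The arms of a hairpin are cut from the same transcript. Their measured difference holds both how much of each arm was present and how well each sequence was captured, which were not separated. miR-106b-5p made up 84.9% to 88.5% of the summed value of its hairpin, miR-93-5p 99.2% to 99.6% and miR-25-3p 99.8% to 99.9%. The 3p arm was the higher of Mir25, and the 5p arm that of Mir106b and Mir93, in all 9 libraries. miR-106b-5p minus miR-106b-3p was 2.60, 2.62 and 2.69 in WT, 2.48, 2.81 and 2.80 in Hete KO and 2.58, 2.95 and 2.72 in Homo KO, with overlap.

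miR-93-5p minus miR-93-3p was 7.31, 7.21 and 7.22 in WT, 7.92, 7.01 and 7.38 in Hete KO and 7.54, 8.00 and 7.72 in Homo KO. Homo KO lay wholly above WT, by a mean of 0.51 (exact permutation p = 0.1, adjusted p = 0.7 over 9 tests), as was so in that direction for 12.1%, and in either for 20.6%, of 141 hairpins with both arms tested. Hete KO overlapped WT and Homo KO here and in the other 2 hairpins, and groups without overlap made up 15.6% (Hete KO against WT) and 11.3% (Homo KO against Hete KO) of those 141. miR-25-3p minus miR-25-5p was 8.92, 9.60 and 9.29 in WT, 9.27, 9.41 and 9.65 in Hete KO and 9.13, 10.20 and 10.06 in Homo KO. The groups overlapped, with a mean difference of 0.53 between Homo KO and WT (exact permutation p = 0.3, adjusted p = 0.7).

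**Figure D5:**
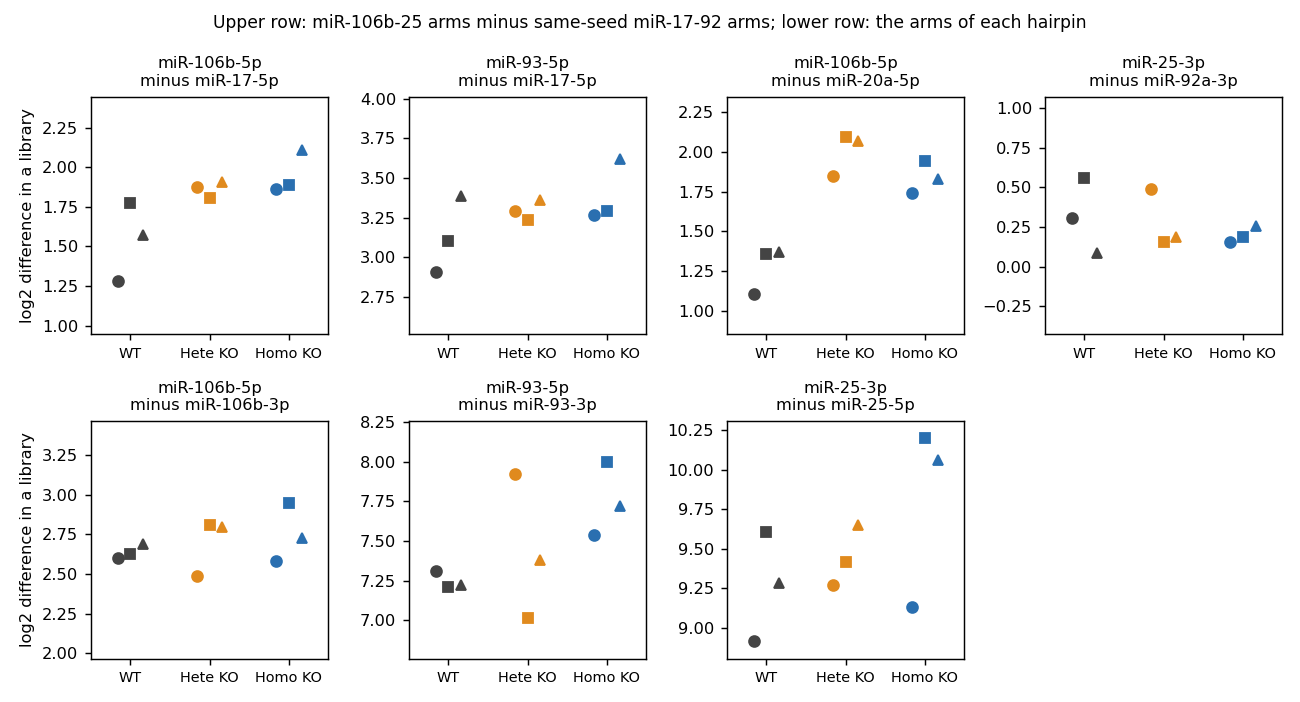
Log2 difference between 2 miRNAs within each library (y axis of equal span in each panel, not starting at 0), for members against same-seed relatives (upper row) and for the arms of each hairpin (lower row); circles, squares and triangles are mice 1, 2 and 3. For miR-106b-5p against miR-17-5p and against miR-20a-5p all 6 knockout libraries lie above the WT libraries (adjusted p = 0.3 in exact permutation tests of each knockout against WT). Of all 162 same-seed pairs tested, 19.1% had all 6 knockout libraries on the same side of WT. The pairs shown were chosen with the low values of miR-20a-5p already known.

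The members did not move tightly together across the 9 libraries. Pearson's r was 0.55 between miR-106b-5p and miR-93-5p, 0.57 between miR-93-5p and miR-25-3p and 0.22 between miR-106b-5p and miR-25-3p (Spearman's rho 0.52, 0.51 and 0.06). Within hairpins it was 0.44 for the arms of Mir106b and 0.26 for those of Mir93. The values are descriptive: the 9 points share genotypes, depth and a common normalization, and the range of each member was small. The 3 tested miRNAs outside the cluster whose values were most like those of miR-106b-5p were miR-669o-5p (r = 0.92), miR-676-5p (r = 0.90) and miR-872-3p (r = 0.90). For miR-93-5p they were miR-145a-3p (r = 0.91), miR-9-5p (r = 0.88) and miR-28c (r = 0.87). For miR-25-3p they were miR-103-3p (r = 0.86), miR-676-3p (r = 0.84) and miR-223-5p (r = 0.84).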

How the data were processed

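Small RNA libraries of 9 mice were analysed, grouped by the genotype label. Trizol extraction and the TruSeq small RNA kit of Illumina were used, per the labels' protocols; per the submitters' processing notes the build was mm10. How reads were aligned, counted and normalized is not given in the sources used here. Deposited by the authors was 1 log2 value per mature miRNA. Their name speaks of FPKM, but they run from 0 to 20.0 with the same highest value in 9 libraries. Quantile-normalized log2(x + 1) was the scale assumed, from the values alone. On such a scale total content and depth cannot be seen, changes are steps between ranks, and folds of rare miRNAs are understated. No pseudocount was added. miRNAs above the lowest value in at least 3 libraries with a mean of at least 3.46 (log2 of 10 + 1) were tested: 489, with 371 left out.

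Genotypes were tested by limma 3.58.1 (R 4.3.3, variance trend, all 9 libraries, Benjamini-Hochberg, threshold 0.05), after a test on simulated data; single values by two-sided exact permutation tests. Each library is an individual mouse, per the series' design text. Likeness is Pearson's r over 9 libraries with tested miRNAs outside the cluster. Every member is named, with relatives from the seed and cluster lists and marker lists for muscle, erythroid, leukocyte, epithelium, liver, endothelium and fat. Members and lists were chosen with earlier results of these data known. Hairpins and sequences come from RefSeq (GRCm38.p6), 698 of 860 miRNAs having one, and Mcm7 exons from GENCODE for GRCm38, the assembly that mm10 names. Figures were drawn with matplotlib 3.10.9. No label ties the mouse numbers to a shared source, and they were not used as pairs. The alternatives were another pseudocount, no or a stricter filter, median scaling, no trend, sample weights, a replicate block, only the compared groups, covariates for muscle, erythroid miRNAs or depth, and libraries left out.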

Additional observations from a re-analysis of the deposited data

How the results depend on the processing

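In all 21 alternatives 0 members passed in any comparison; the lowest adjusted p of a member in limma was 0.116 (miR-106b-5p, Homo KO against WT, sample weights). Of 15 member differences, 7 never changed sign, and of 312 values 23 did. With the replicate block 0 members passed, and calls over all miRNAs went from 16 to 25 (Homo KO against WT) and from 2 to 15 (Hete KO against WT); miR-18a-5p passed in Hete KO against WT with the replicate block (-0.76, adjusted p = 0.0417) and miR-20a-5p did not (-0.63, adjusted p = 0.0663). Deviations of same-numbered libraries correlated with r from -0.28 to 0.55; 5 of 9 pairs were over 0.1, among them all 3 pairs of mice numbered 3 (0.38 to 0.55), and the best match had the same number in 8 of 18 cases. Calls over all miRNAs in Homo KO against WT ran from 0 (depth covariate) to 74 (sample weights) and were 2 to 25 with a library left out; in Hete KO against WT they ran from 0 (depth covariate) to 34 (sample weights), 1 to 24 with a library left out; in Homo KO against Hete KO there were 4 without the 3 libraries highest in muscle miRNAs and 0 in the main fit. Without those 3, WT has 1 library, assumed to vary like the others. Signs changed as follows; the cause was not tested. Homo KO against WT: miR-93-5p was -0.012 with the muscle covariate and -0.044 without the 3 libraries, and miR-25-3p was -0.022 and -0.035. Hete KO against WT: with the erythroid covariate miR-106b-3p was -0.026, miR-93-5p 0.039, miR-93-3p 0.103 and miR-25-3p -0.0057; miR-93-5p was 0.023 with the depth covariate, and miR-25-3p was -0.0045 without the 3 libraries. With a library left out, the ranges were -0.027 to 0.099 (miR-106b-3p), -0.155 to 0.017 (miR-93-5p), -0.456 to 0.064 (miR-93-3p) and -0.0048 to 0.087 (miR-25-3p). Homo KO against Hete KO: miR-93-3p was 0.049 without the 3 libraries (-0.47 to 0.049 with a library left out), and miR-25-3p was -0.051 with the muscle covariate and -0.031 without the 3 libraries (-0.031 to 0.062 with a library left out); miR-18a-5p ran from -0.0098 to 0.089. Arm differences: Mir106b in Hete KO against WT was -0.048 without the 3 libraries; with a library left out, Mir106b in Homo KO against Hete KO ran from -0.052 to 0.138, Mir93 in Hete KO against WT from -0.048 to 0.405 and Mir25 in Hete KO against WT from -0.00032 to 0.343. Paralogue differences: miR-93-5p minus miR-17-5p in Hete KO against WT was -0.060 without the 3 libraries, and in Homo KO against Hete KO it ran from -0.016 to 0.159 with a library left out; miR-25-3p minus miR-92a-3p was 0.112 (Homo KO against WT) and 0.252 (Hete KO against WT) without the 3 libraries, and ran from -0.235 to 0.0011, from -0.156 to 0.080 and, in Homo KO against Hete KO, from -0.140 to 0.026 with a library left out. Depth is unknown, so that no counting error can be given; the stricter filter leaves out miR-93-3p, and miR-25-5p enters only without a filter.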
